A study of Mus musculus with 28 samples.

Results

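The effect of the Ripk1 D138N mutation on hippocampal RNA of 5xFAD mice was set against the effect of Zbp1 knockout in the same model, gene by gene. The quantity is a difference of differences on the log2 scale: Ripk1 D138N/D138N 5xFAD minus 5xFAD, taken in the Ripk1 cohort and called here the Ripk1 effect, less Zbp1-/- 5xFAD minus 5xFAD, taken in the Zbp1 cohort and called the Zbp1 effect. A negative difference means a gene stood lower after the Ripk1 mutation than after the Zbp1 knockout, each relative to its own 5xFAD animals. The 4 groups hold 3 libraries each, so 12 of the 28 libraries of the series enter the contrast directly. The count tables of both cohorts were joined on gene ID, and 22565 of 55487 genes had enough reads to test. The 5xFAD line carries mutant human transgenes for amyloid deposition, driven in neurons by the Thy1 promoter, and all 4 groups carry them. Per the labels, the mice were 9 months old, each mutant line had its own WT mice of shared ancestry, and tissue was taken after behavioural testing. The remaining 12 hippocampal libraries are WT, Ripk1 D138N/D138N and WT, Zbp1-/- mice without transgenes, which served the estimate of spread and a matching contrast. The labels do not say that the 3 libraries of a group came from separate animals, so every p-value measures the spread between these libraries.

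RIPK1 is a kinase that relays death receptor and Toll-like receptor signals, and its kinase activity drives necroptosis, a form of cell death that runs through RIPK3 and MLKL. The D138N substitution lies in the kinase domain and removes that activity while leaving the protein as a scaffold. ZBP1 is a sensor of Z-form nucleic acids that binds RIPK1 and RIPK3, and its gene is itself induced by interferon. Interferons act through transcription factors such as STAT2 and IRF9 on a set of antiviral genes. In mouse models of amyloid deposition such genes are raised, together with genes of microglia, the resident macrophages of the brain, which shift towards a disease-associated state around plaques.

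Libraries of the Ripk1 cohort held between 16.6 and 44.8 M counts. Those of the Zbp1 cohort held 27.1 to 34.6 M, apart from WT 1 with 8.4 M. Markers of hippocampal neurons, astrocytes, oligodendrocytes and microglia were present in every library. Choroid plexus markers (Ttr and Kl) varied widely inside every group, from 37 to 4690 CPM summed (CPM, read counts scaled to a common library size). Libraries referred to below include 3 of the 5xFAD references: 5xFAD 1 of the Ripk1 cohort had very high immediate early genes, 5xFAD 2 of the Zbp1 cohort stood apart in an earlier look at these data by low Malat1 and Prox1, and 5xFAD 3 of the Zbp1 cohort had the lowest microglial genes of its group.

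The targeted genes were read first. Zbp1 was at 0.354, 0.324 and 0.301 CPM in the 3 Zbp1-/- 5xFAD libraries and at 1.89, 1.83 and 3.61 CPM in 5xFAD of that cohort. The Zbp1 effect on Zbp1 itself was -2.89 ± 0.64 (log2 fold change ± SE; adjusted p = 0.0431 by edgeR's quasi-likelihood test with Benjamini-Hochberg adjustment), so it fell, and a few reads remained. In the Ripk1 cohort Zbp1 was at 6.75, 3.71 and 7.35 CPM in 5xFAD and at 1.19, 1.24 and 0.717 CPM in D138N 5xFAD, with no overlap. That Ripk1 effect of -2.50 ± 0.59 did not pass adjustment (adjusted p = 0.0825). The difference between the effects on Zbp1 was 0.39 ± 0.83 (unadjusted p = 0.643). Zbp1 was thus at lower levels than the references in both mutants, one of which carries its knockout.

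Ripk1, whose mutation is a point change that leaves the transcript countable, lay at 10.5, 9.78 and 9.84 CPM in D138N 5xFAD and at 10.7, 9.56 and 9.97 CPM in its 5xFAD reference. These counts cannot check the D138N label. Its difference was 0.20 ± 0.23 (unadjusted p = 0.402). Ripk3 and Mlkl, the kinase and the pore-forming protein of necroptosis, were scarce: Ripk3 did not pass 0.943 CPM and Mlkl not 1.33 CPM in any of the 12 libraries. The difference of Mlkl, -1.50 ± 0.95 (unadjusted p = 0.129), was not resolved at that level.

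The difference between mutant effects passed adjustment for none of the 22565 genes (0% called; smallest adjusted p = 0.524). At an unadjusted p under 0.05 there were 623 genes with a higher and 441 with a lower difference, together 4.72% of the genes tested (2.76% and 1.95%). The median difference over all genes was 0.04 and the median SE 0.33. Among the 16395 genes with a mean of at least 1 CPM the median SE was 0.23. DESeq2 called 10 genes on the same counts, 4 higher (Gpnmb, Fmnl3, Rassf4, Nfatc1) and 6 lower (Isg15, Ifit1, Ifit3, Oasl2, Ide and the pseudogene Cyp4f41-ps), with a smallest adjusted p of 0.0223. Without 5xFAD 3 of the Zbp1 cohort the quasi-likelihood test called 8 genes, all higher, among them Vsir, Gpnmb, Csf1r, Cd68, Gusb, Trem2 and Hexa. All differences below are therefore values with their errors, and "called" is used of a single effect only.

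Taken one at a time, each effect did give calls, nearly all of them decreases. The Ripk1 effect was called for 2 genes higher and 48 lower (0.00886% and 0.213% of genes tested). The Zbp1 effect was called for 1 gene higher and 98 lower (0.00443% and 0.434%). Only 5 genes were called lower in both, which is 10.4% of the Ripk1 calls and 5.1% of the Zbp1 calls. The difference in the identity of the calls was not itself tested. Genes called in one effect mostly had the same sign in the other: all 48 Ripk1 decreases were below 0 in the Zbp1 effect, with a median of -0.68 there against -1.37 in the Ripk1 effect. Of the 98 Zbp1 decreases, 90 were below 0 in the Ripk1 effect, with a median of -0.22 against -0.90. The effects share no library. Across the 16395 genes of at least 1 CPM the effects correlated with Pearson r = 0.36 and Spearman rho = 0.40, which describes genes and not replicates.

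The Zbp1 calls rested on more than their own cohort. None of the 98 decreases remained when that cohort was fitted alone, when Thy1 level was a covariate, or without Zbp1-/- 5xFAD 3, and 4 genes were called when the fit held the 12 libraries of the contrast only. The other libraries of that cohort mattered too: the 99 calls became 17 and 43 without Zbp1-/- 5xFAD 1 and 2, and 19, 34 and 838 without 5xFAD 1, 2 and 3. The Ripk1 effect gave 78 calls in its cohort alone and 24 with the Thy1 covariate. Its 50 calls became 26, 124 and 21 without D138N 5xFAD 1, 2 and 3, and 27, 78 and 69 without 5xFAD 1, 2 and 3.

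**Figure D1:**
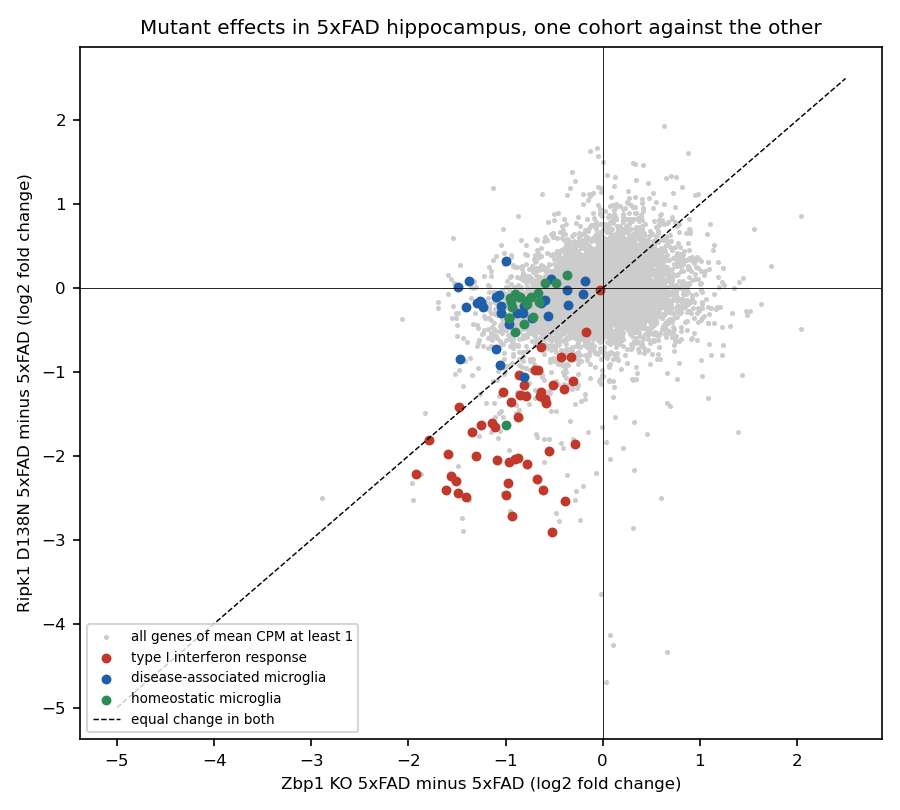
Log2 fold change of Ripk1 D138N 5xFAD minus 5xFAD (vertical axis) against that of Zbp1 KO 5xFAD minus 5xFAD (horizontal axis). Grey points are the 16395 genes with a mean of at least 1 CPM, coloured points are 3 gene lists, and the dashed line marks equal change. Genes of the type I interferon response lie mostly below the dashed line and most microglial genes above it.

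Genes of the type I interferon response had the lower difference. Of the 49 genes of the list, all tested, 47 had a difference below 0, against 44.1% of all genes. Their median was -0.67, with a range of -2.39 to 0.06. At an unadjusted p under 0.05, 18 were lower and 0 higher, against 1.95% lower among all genes. The median Ripk1 effect of the list was -1.66 with 26 of 49 called lower, against 0.213% of all genes. The median Zbp1 effect was -0.86 with 5 called lower, against 0.434% of all genes. Groups did not overlap, mutant below reference, for 48 of 49 genes in the cohort of Ripk1 and 35 of 49 in that of Zbp1, against 7.13% and 7.69% of all genes. The list was drawn up with results of these data known, so its direction is no independent evidence.

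Interferon-stimulated genes often carry the interferon-stimulated response element, the site of a complex that holds STAT2 and IRF9. Its core was searched as GAAA, any 2 bases and GAAA on both strands of the 300 bases around each gene start in RefSeq (GRCm38.p6). It occurred in 19 of the 37 list genes with a promoter there (51.4%). Of all 27025 genes with a promoter there 3.99% held it, and of the tested genes among them 3.76%. For antigen presentation the core occurred in 4 of 20 genes (20%). For immediate early genes, which are no interferon list, it occurred in 4 of 17 (23.5%). A match describes letters and is not a shown binding site. The stretches below, all upstream of the start and in gene orientation, are from genes whose values follow and that have a match, with the core in capitals. Irf7, Oasl2 and Tap1, whose values follow too, have 0 cores upstream of the start in that window. Where cores overlap the capitals run together, and a core on the opposite strand is shown by its complement.
Isg15 (chr4:156200820-156200909, minus strand): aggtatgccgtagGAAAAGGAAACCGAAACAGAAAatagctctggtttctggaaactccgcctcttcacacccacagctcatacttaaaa
Ifit1 (chr19:34640779-34640868, plus strand): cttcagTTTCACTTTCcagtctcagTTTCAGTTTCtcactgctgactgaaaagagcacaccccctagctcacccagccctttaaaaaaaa
Ifit3 (chr19:34583368-34583457, plus strand): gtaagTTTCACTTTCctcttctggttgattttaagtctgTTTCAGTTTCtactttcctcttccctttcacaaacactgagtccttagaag
Stat2 (chr10:128270251-128270340, plus strand): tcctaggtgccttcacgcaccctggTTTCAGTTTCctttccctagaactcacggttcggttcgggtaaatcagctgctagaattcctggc
H2-T23 (chr17:36032761-36032850, minus strand): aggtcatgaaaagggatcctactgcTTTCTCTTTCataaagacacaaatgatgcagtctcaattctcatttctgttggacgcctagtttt

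Isg15, a ubiquitin-like protein attached to other proteins during antiviral responses, has 3 overlapping cores in that stretch. It was at 1.62, 2.44 and 2.15 CPM in D138N 5xFAD against 10.9, 8.54 and 13.1 CPM in the 5xFAD mice of that cohort. In the Zbp1 cohort it was at 1.54, 2.3 and 2.38 CPM in KO 5xFAD against 3.81, 3.55 and 2.14 CPM in 5xFAD. The mutant groups thus ended at like levels, the 5xFAD references did not, and only in the Zbp1 cohort did mutant and reference overlap. The Ripk1 effect was -2.40 ± 0.27 (edgeR adjusted p = 4.85e-05), the Zbp1 effect -0.61 ± 0.26 (adjusted p = 0.32), and their difference -1.79 ± 0.37 (unadjusted p = 7.19e-05, adjusted p = 0.524). Leaving out a library gave -1.57 to -1.96.

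Ifit1, which binds foreign RNA lacking a methylated cap, has 2 cores. It was at 5.32, 5.88 and 5.17 CPM in D138N 5xFAD against 44.4, 22.4 and 40.2 CPM in 5xFAD. The Zbp1 cohort was narrower: KO 5xFAD had 5.69, 4.61 and 5.09 CPM against 11.1, 9.2 and 9.05 CPM. Both cohorts were separated without overlap, by a wider gap in the Ripk1 cohort. The Ripk1 effect was -2.71 ± 0.29 (adjusted p = 3.12e-05 by edgeR), the Zbp1 effect -0.93 ± 0.28 (adjusted p = 0.171), and the difference of Ifit1 -1.78 ± 0.39 (unadjusted p = 0.000149).

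Irf7, a transcription factor that drives interferon genes, was at 4.64, 3.51 and 3.19 CPM in D138N 5xFAD and at 31, 18.9 and 22.2 CPM in its reference. KO 5xFAD had 3.28, 4.79 and 3.31 CPM of Irf7 and its reference 5.33, 10.4 and 6.22 CPM. The difference was -1.72 ± 0.45 (unadjusted p = 0.00089). Oasl2, an antiviral protein of the oligoadenylate synthetase family, was at 12.6, 13.3 and 8.3 CPM against 83.6, 49.2 and 56.8 CPM in the Ripk1 cohort. KO 5xFAD had 11.1, 13 and 12.1 CPM of Oasl2 against 25.3, 23.6 and 23 CPM in its reference, and the difference was -1.48 ± 0.35 (unadjusted p = 0.000317). Both genes fell in the Ripk1 cohort (edgeR adjusted p = 0.00016 for Irf7 and 3.12e-05 for Oasl2). Neither Zbp1 effect passed (adjusted p = 0.218 and 0.0845), although the groups did not overlap.

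**Figure D2:**
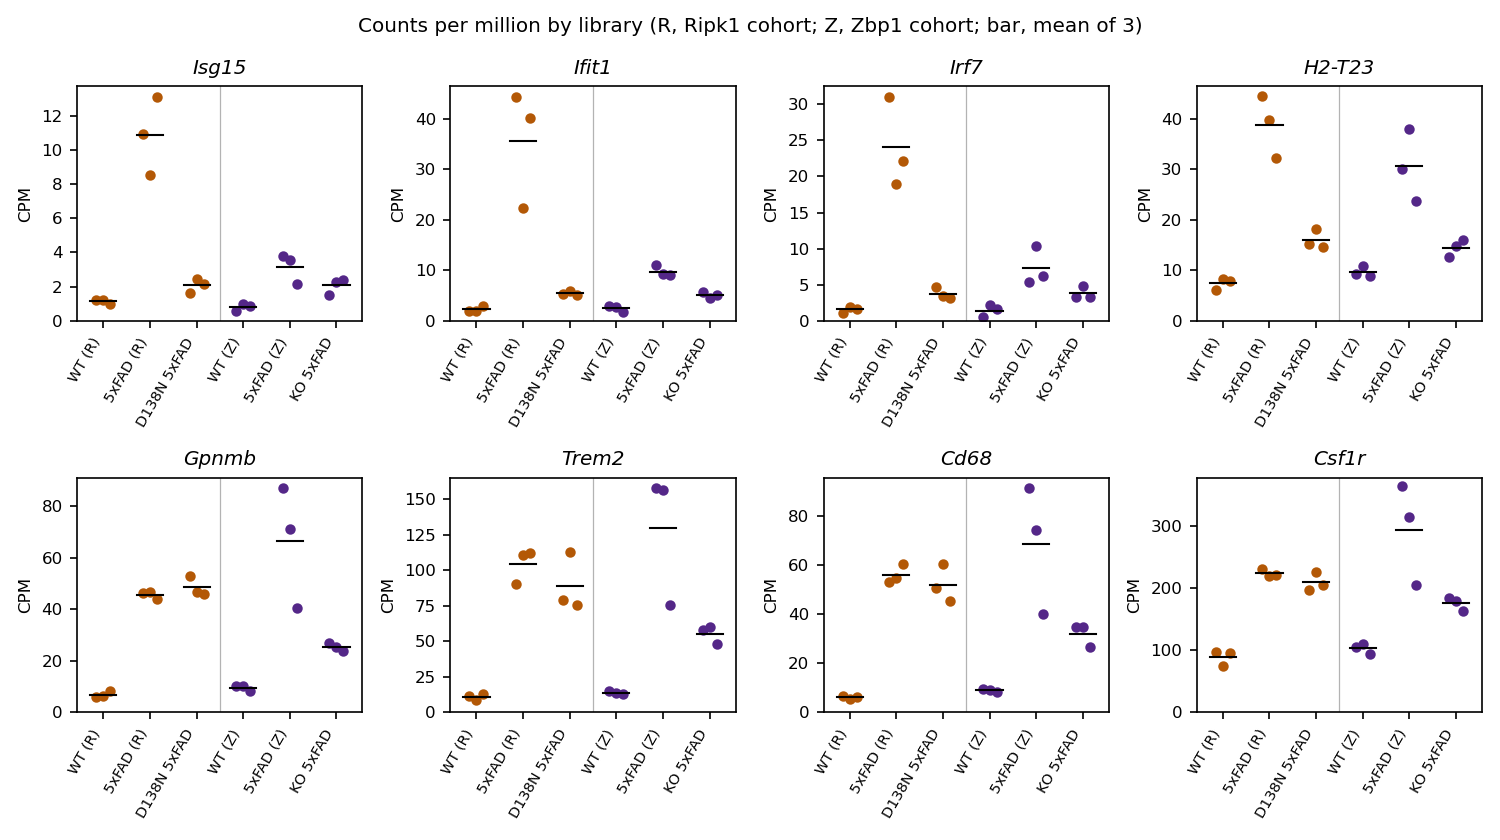
CPM (linear vertical axes from 0) of 4 interferon-induced genes (top row) and 4 microglial genes (bottom row) in each library, with the mean of 3 as a bar, for WT, 5xFAD and mutant 5xFAD of the Ripk1 cohort (orange) and the Zbp1 cohort (purple). Isg15 and Ifit1 differ between the 5xFAD references and end at like levels in both mutants, while Gpnmb stays near its 5xFAD level in D138N 5xFAD and is lower in KO 5xFAD.

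Other antiviral genes showed the same order of effects. Ifit3, with 2 cores upstream, had a Ripk1 effect of -2.28 ± 0.28 and a Zbp1 effect of -0.68 ± 0.27. Mx1, a GTPase that traps viral particles, had the lowest difference of the list, -2.39 ± 0.62 (unadjusted p = 0.000834), and one reference library at 22.8 CPM against 7.45 and 7.14 in the others. Among signalling components Stat2, with 1 core, had a difference of -0.69 ± 0.17 (unadjusted p = 0.000608): it fell by 0.86 in the Ripk1 cohort (edgeR adjusted p = 0.00102), and its Zbp1 effect was -0.16 ± 0.12. The list of interferon ligands, receptors and signalling as a whole had a median difference of 0.02, with 4 of 19 genes lower and 2 higher at an unadjusted p under 0.05. Of the RNA sensors, Ifih1 (also known as MDA5) had a difference of -0.77 ± 0.31 and Eif2ak2, the kinase PKR, one of -0.52 ± 0.23. Both were called lower in the Ripk1 cohort (edgeR adjusted p = 0.0217 and 0.0104), and both lost the call when D138N 5xFAD 1 or 3 or 5xFAD 1 of that cohort was left out, Ifih1 also without D138N 5xFAD 2 or 5xFAD 3. Of the 19 nucleic acid sensors tested, 2 had a lower and 0 a higher difference at an unadjusted p under 0.05. Among all genes 1.95% were lower and 2.76% higher.

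Antigen presentation genes, many of them under interferon control, held calls in both effects. Over the list of 26 genes the median difference was -0.23. In the Ripk1 effect 7 were called lower, against 0.213% of all genes, and in the Zbp1 effect 3, against 0.434%. In the difference 1 was lower and 0 higher at an unadjusted p under 0.05, against 1.95% and 2.76% of all genes. H2-T23, a non-classical class I molecule with 1 core upstream, was at 15.1, 18.2 and 14.6 CPM in D138N 5xFAD against 44.5, 39.8 and 32.1 CPM. KO 5xFAD had 12.7, 14.8 and 16 CPM of H2-T23 against 30, 38 and 23.6 CPM. It fell in both (effects of -1.28 ± 0.18 and -1.07 ± 0.18, edgeR adjusted p = 0.000538 and 0.0082), with a difference of -0.21 ± 0.25 (unadjusted p = 0.413). Here the 5xFAD references of the cohorts overlapped, with the highest values in the Ripk1 cohort, and the mutants overlapped as well.

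Further genes were called lower in both effects. Tap1, a subunit of the peptide transporter that loads class I molecules, had effects of -1.47 and -1.05 and a difference of -0.42 ± 0.28. Gbp3, an interferon-induced GTPase, had effects of -1.66 and -1.11 and a difference of -0.55 ± 0.34. Irgm1, a GTPase of vacuole and autophagy control, had effects of -1.36 and -0.94 and a difference of -0.42 ± 0.29. The fifth shared call was Oas1a, an activator of RNase L, with effects of -2.21 and -1.92. These errors leave room for a difference of the size seen for Stat2, so the genes are not shown to respond alike. The class I genes H2-Q4, H2-Q6 and H2-Q7 had differences of larger size. H2-Q4 was called in the Ripk1 cohort (-1.85 ± 0.33, edgeR adjusted p = 0.00899) but not without D138N 5xFAD 1 or 3 or 5xFAD 1, its Zbp1 effect was -0.43 ± 0.32, and its difference was -1.42 ± 0.46. H2-Q6 and H2-Q7 had differences of -1.47 ± 0.74 and -1.20 ± 0.64 and were called in neither effect. H2-Q genes are near-identical copies whose reads may be shared.

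Where the interferon difference sat among the groups could be read from the levels. The median log2 CPM over the 49 interferon genes (pseudocount 0.5) was 4.12, 3.72 and 4.37 in 5xFAD of the Ripk1 cohort. In 5xFAD of the Zbp1 cohort it was 3.31, 2.98 and 3.26. It was 2.38, 2.55 and 2.41 in D138N 5xFAD and 2.37, 2.35 and 2.65 in KO 5xFAD. The mutants overlapped and the references did not. Gene by gene, the median log2 ratio of the Ripk1 over the Zbp1 cohort was 0.77 between the 5xFAD groups, 0.07 between the mutant 5xFAD groups, -0.07 between WT groups and -0.02 between the mutants without transgenes. The 5xFAD effect itself (5xFAD minus WT) had a list median of 2.94 for Ripk1 cohort mice and 1.90 for Zbp1 cohort mice. That contrast shares its 5xFAD libraries with the difference of mutant effects, so neither supports the other. Per gene, its difference between cohorts was 1.35 ± 0.39 for Isg15 and 1.97 ± 0.41 for Ifit1, and it was called for no gene (0% called; smallest adjusted p = 0.237; 2063 genes, or 9.14%, at an unadjusted p under 0.05). The response of the references and the response to the mutations cannot be told apart in this design, because each mutation was measured in 1 cohort. Markers of lymphocytes, scarce in brain, stood on the same side: 13 of 20 T and NK lymphocyte genes were tested, with a median difference of -0.84, a median Ripk1 effect of -1.06 and a median Zbp1 effect of -0.35. None of the 13 had a difference past an unadjusted p of 0.05, and none was called in either effect. Their median log2 CPM lay between 0.04 and 0.33 in 5xFAD of the Ripk1 cohort and between -0.24 and -0.05 in D138N 5xFAD. It lay between -0.23 and 0.18 in the 6 transgenic libraries of the Zbp1 cohort. The 13 tested genes of peripheral myeloid cells had a median difference of -0.50, also with none past that threshold. The part of these cells in the interferon difference was not tested.

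**Figure D3:**
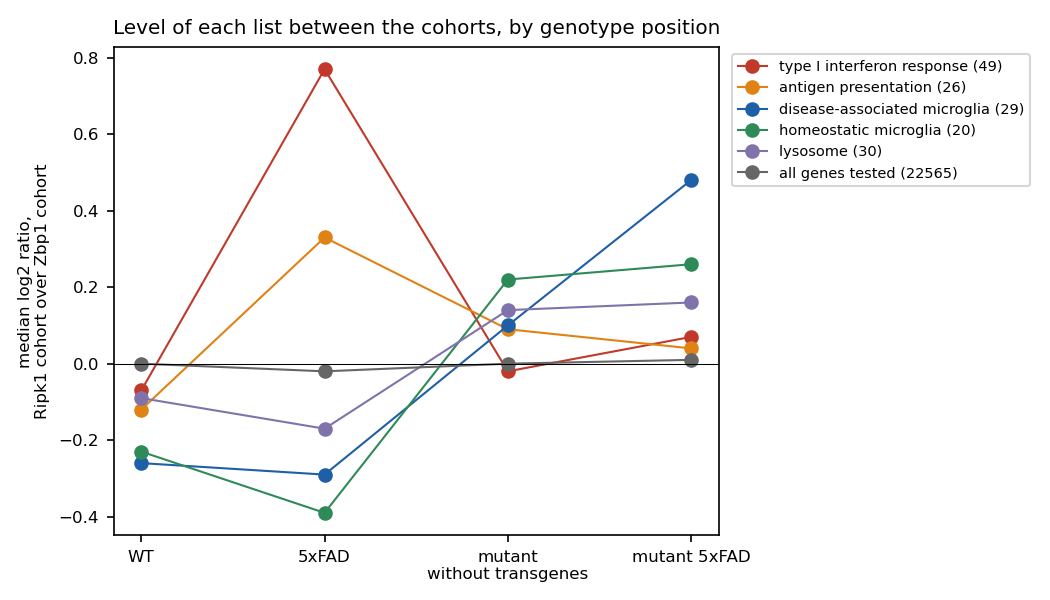
Median log2 ratio of level, Ripk1 cohort over Zbp1 cohort (vertical axis), for 5 gene lists and all genes at each genotype position (horizontal axis), with the number of genes in brackets. The interferon list departs from 0 between the 5xFAD groups (0.77) and returns to 0.07 between the mutant 5xFAD groups. The microglial lists are below 0 between the WT groups and between the 5xFAD groups. They are above 0 between the mutant groups, without and with 5xFAD.

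Microglial genes had the opposite sign. Of the 29 disease-associated microglia genes, 28 had a difference above 0, against 55.9% of all genes, with a median of 0.60. At an unadjusted p under 0.05, 14 were higher and 0 lower, against 2.76% higher among all genes. Their median Ripk1 effect was -0.20 with 1 of 29 called lower, and their median Zbp1 effect -0.99 with 10 called lower. Of all genes, 0.213% were called lower in the Ripk1 effect and 0.434% in the Zbp1 effect. The 20 homeostatic microglia genes had a median difference of 0.61 (13 higher, 0 lower), a median Ripk1 effect of -0.15 (0 called) and a median Zbp1 effect of -0.83 (10 called lower). In bulk tissue, fewer microglia and less RNA of these genes per microglial cell cannot be told apart.

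Gpnmb, a membrane glycoprotein of lipid-laden phagocytes, had the smallest p on this side. It was at 52.9, 46.8 and 46.1 CPM in D138N 5xFAD and at 46.2, 46.6 and 44.1 CPM in 5xFAD of the Ripk1 cohort, so these groups overlapped. Gpnmb was at 27.1, 25.3 and 23.8 CPM in KO 5xFAD and at 87.1, 71.2 and 40.7 CPM in its reference, without overlap but with 1 reference library well below the others. Gpnmb fell in the Zbp1 cohort (-1.38 ± 0.21, edgeR adjusted p = 0.008), its Ripk1 effect was 0.09 ± 0.21, and the difference was 1.47 ± 0.30 (unadjusted p = 5.51e-05, adjusted p = 0.524). Leaving out a library gave 1.23 to 1.73, and the highest of these, without 5xFAD 3 of the Zbp1 cohort, passed adjustment (adjusted p = 0.00672).

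Trem2, the lipid receptor through which microglia enter the disease-associated state, was at 79.1, 113 and 75.9 CPM in D138N 5xFAD against 90.7, 111 and 112 CPM in its reference. KO 5xFAD had 57.7, 60.4 and 48.4 CPM of Trem2 against 158, 157 and 75.5 CPM. Its Zbp1 effect was -1.23 ± 0.20 (edgeR adjusted p = 0.0082) and its difference 1 ± 0.28 (unadjusted p = 0.00184). The third reference library again lay well below the other two. Cd68, a lysosomal protein of phagocytes, and Lyz2, lysozyme, had differences of 0.99 ± 0.28 and 1.08 ± 0.35. Their Zbp1 effects of -1.10 and -1.25 were called and their Ripk1 effects of -0.11 and -0.17 were not.

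Of the homeostatic genes, Csf1r, the receptor that keeps microglia alive, was at 197, 227 and 205 CPM in D138N 5xFAD against 231, 220 and 222 CPM. KO 5xFAD had 184, 180 and 164 CPM of Csf1r against 364, 315 and 205 CPM. Its difference was 0.64 ± 0.19 (unadjusted p = 0.00245). Entpd1, an ectoenzyme that breaks down extracellular ATP, was at 24.2, 22.2 and 22.6 CPM in KO 5xFAD against 39.3, 46.6 and 39.3 CPM, while D138N 5xFAD had 27, 25.2 and 24.2 CPM against 26.8, 27.4 and 28.5 CPM. Its difference was 0.75 ± 0.20. The KO 5xFAD libraries thus lay below every 5xFAD library of their cohort for both genes, and the D138N 5xFAD libraries lay among or near their references.

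Genes outside the lists with the smallest p on this side included further myeloid genes. Fmnl3, a formin that shapes actin, had a difference of 0.78 ± 0.17, Rassf4 one of 0.93 ± 0.21 and Vsir, the checkpoint ligand VISTA, one of 0.89 ± 0.21. Pik3cg, the gamma catalytic subunit of PI3-kinase in leukocytes, had 1.06 ± 0.25, and Slc16a3, a lactate exporter, 1.36 ± 0.34. For Vsir, KO 5xFAD was at 67.6, 67 and 58.8 CPM against 139, 141 and 79.4 CPM, and D138N 5xFAD at 73.9, 85.6 and 76.7 CPM against 76.5, 81 and 79.6 CPM. All 5 fell in the Zbp1 cohort (edgeR adjusted p from 0.00891 to 0.0361) and none was called in the Ripk1 cohort.

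The reading by level differed from that of the interferon genes. Over the disease-associated microglia list the median log2 CPM was 6.08, 6.30 and 5.98 in D138N 5xFAD and 5.98, 6.46 and 6.48 in its reference. It was 5.63, 5.59 and 5.41 in KO 5xFAD and 6.82, 6.35 and 6.04 in its reference. KO 5xFAD lay below the other 3 groups without overlap. Between cohorts the list's median log2 ratio was 0.48 between mutant 5xFAD groups, with the Ripk1 cohort higher, and -0.29 between 5xFAD groups. The summed level of 3 microglial markers (Csf1r, Cx3cr1 and P2ry12) ran from 394 to 446 CPM in D138N 5xFAD and from 436 to 461 CPM in its reference, and from 297 to 366 CPM in KO 5xFAD against 399 to 690 CPM in its reference. Its part in the differences of other microglial and interferon genes was not tested.

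Lysosomal genes, which microglia express at high level among other cells, followed the microglial lists at smaller size. Of 30 genes tested, 13 had a higher and 0 a lower difference at an unadjusted p under 0.05, against 2.76% and 1.95% of all genes. The median difference was 0.37, and 26 were above 0, against 55.9% of all genes. In the Zbp1 effect 13 were called lower, against 0.434% of all genes, and in the Ripk1 effect 0, against 0.213%. Hexa, a subunit of beta-hexosaminidase, had a difference of 0.69 ± 0.20, Lamp1, a protein of the lysosomal membrane, 0.45 ± 0.14 and Man2b1, lysosomal alpha-mannosidase, 0.45 ± 0.15. Lamp1 showed how narrow the margin was: 251, 268 and 247 CPM in KO 5xFAD against 340, 420 and 301 CPM, and 286, 341 and 299 CPM in D138N 5xFAD against 311, 323 and 306 CPM. Ctsd, the protease cathepsin D, was at 340, 362 and 306 CPM in KO 5xFAD against 782, 862 and 447 CPM, with a Zbp1 effect of -1.05 ± 0.20 (edgeR adjusted p = 0.0182) and a difference of 0.85 ± 0.29. The element bound by the lysosomal regulator TFEB has the core CACGTGAC. It occurred in 7 of the 23 lysosomal genes with a promoter in RefSeq (30.4%). That held for 4.02% of tested genes with a promoter there, 2.55% of all genes with one and 0 of the 37 interferon genes. Hexa has 0 matches upstream of its start. The core is shown in capitals in the stretches upstream of Lamp1 and Ctsd, again in gene orientation. Of the 2 upstream matches of Ctsd, the one nearer the start is shown.
Lamp1 (chr8:13159108-13159160, plus strand): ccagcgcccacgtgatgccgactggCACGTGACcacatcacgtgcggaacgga
Ctsd (chr7:142387861-142387950, minus strand): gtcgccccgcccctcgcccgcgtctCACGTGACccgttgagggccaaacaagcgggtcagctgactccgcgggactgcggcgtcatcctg

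Complement genes stood between the groups. C1qb, a chain of the initiator C1q, was at 92.3, 103 and 87 CPM in KO 5xFAD against 231, 269 and 141 CPM, and at 107, 167 and 111 CPM in D138N 5xFAD against 203, 200 and 176 CPM, without overlap in either cohort. Its effects were -0.59 ± 0.17 and -1.18 ± 0.18, of which the Zbp1 effect passed (edgeR adjusted p = 0.267 and 0.008), and the difference was 0.60 ± 0.25 (unadjusted p = 0.024). Over 19 complement genes the median difference was 0.28. At an unadjusted p under 0.05, 2 were higher and 0 lower, against 2.76% and 1.95% of all genes. Gfap, the filament protein of reactive astrocytes, fell in the Zbp1 cohort (-0.75 ± 0.16, adjusted p = 0.0342 by edgeR), had a Ripk1 effect of -0.26 ± 0.16 and a difference of 0.49 ± 0.22. The 26 reactive astrocyte genes had a median difference of 0.13. In each effect 4 were called lower, against 0.213% of all genes for Ripk1 and 0.434% for Zbp1.

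**Figure D4:**
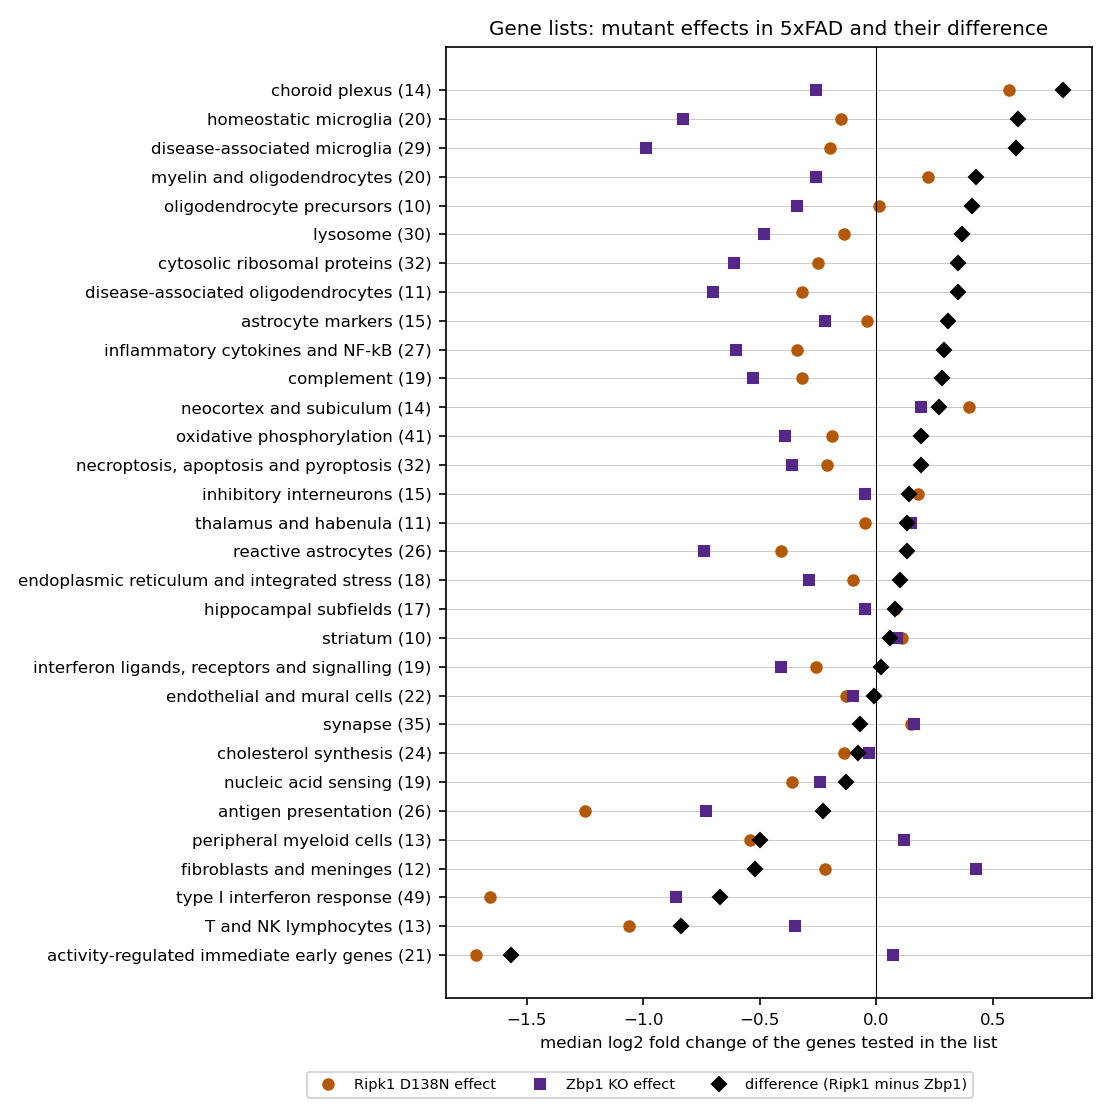
Median log2 fold change of each gene list (number of genes tested in brackets) for the Ripk1 effect (circles), the Zbp1 effect (squares) and their difference (diamonds), for lists of at least 10 tested genes. The interferon list lies at -1.66 and -0.86 with a difference of -0.67, and the disease-associated microglia list at -0.20 and -0.99 with a difference of 0.60.

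Cell death genes moved little as a list: 32 genes had a median difference of 0.19. At an unadjusted p under 0.05, 2 were higher and 0 lower, against 2.76% and 1.95% of all genes. Casp8, the protease that restrains necroptosis, was at 6.42, 6.61 and 7.01 CPM in D138N 5xFAD against 4.77, 6.37 and 5.56 CPM, and at 3.8, 5.33 and 4.55 CPM in KO 5xFAD against 9.07, 6.32 and 8.93 CPM. Its groups did not overlap in either cohort, in opposite directions, with a difference of 1.09 ± 0.31 (unadjusted p = 0.0018). Neither effect of Casp8 passed adjustment (adjusted p = 0.873 and 0.106 by edgeR).

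The lists of myelin genes and of oligodendrocyte precursors had positive differences. All 20 myelin genes lay above 0 (median 0.43), against 55.9% of all genes. At an unadjusted p under 0.05, 7 were higher, against 2.76% of all genes. Their effects were small and of opposite sign, with a median Ripk1 effect of 0.22, a median Zbp1 effect of -0.26 and 0 called in either. Cnp, an enzyme of myelin, had 0.55 ± 0.18 and Gal3st1, the sulfatide synthase, 0.79 ± 0.23. All 10 precursor genes were above 0 as well (median 0.41, 5 higher), with a median Ripk1 effect of 0.01 and a median Zbp1 effect of -0.34. Among them were Pdgfra, the growth factor receptor of precursors, with 0.51 ± 0.15 and Gpr17, of differentiating precursors, with 0.71 ± 0.25. The summed level of Mbp and Mog ran from 3040 to 4210 CPM in D138N 5xFAD, 2830 to 3870 CPM in its reference, 2130 to 2640 CPM in KO 5xFAD and 2980 to 3600 CPM in its reference. Among other cell types the 14 choroid plexus genes were all above 0 (median 0.80) and 9 of 12 genes of fibroblasts and meninges below 0 (median -0.52), with 0 and 2 genes past an unadjusted p of 0.05. The 35 synapse genes had a median difference of -0.07, and 1 was lower. Positive differences were found beyond the oligodendrocyte lineage too. All 15 astrocyte marker genes lay above 0 (median 0.31), with 2 higher at an unadjusted p under 0.05. Of 41 genes of oxidative phosphorylation 38 lay above 0 (median 0.19), with 0 past that threshold. All 32 cytosolic ribosomal protein genes had a difference above 0 (median 0.35), none past an unadjusted p of 0.05. Their median log2 CPM was 7, 7.82 and 6.8 in 5xFAD of the Zbp1 cohort and 6.61, 6.69 and 6.66 in KO 5xFAD. It was 7.11, 7.4 and 7.22 in 5xFAD of the Ripk1 cohort and 6.77, 7.31 and 6.84 in D138N 5xFAD. 5xFAD 2 of the Zbp1 cohort and D138N 5xFAD 2 thus stood well above the other libraries of their groups.

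The difference of the immediate early genes rested on a single library. These 21 genes, induced by neuronal firing, had a median difference of -1.57. At an unadjusted p under 0.05, 15 were lower, against 1.95% of all genes. Npas4, an activity-dependent transcription factor, was at 669 CPM in 5xFAD 1 of the Ripk1 cohort and at 15.7 and 8.68 CPM in the other libraries of that group. D138N 5xFAD had 7.34, 9.68 and 17 CPM of Npas4. Fosb, Btg2 and Fos in the same library were at 551, 337 and 515 CPM, against 5.25 to 20.6 CPM in the remaining reference libraries for all 3 genes. Without that library the list's median difference was -0.05.

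Ide, the insulin-degrading enzyme, which also degrades amyloid beta, had effects of opposite sign, neither of them called. The Ripk1 effect was -0.49 ± 0.17 and the Zbp1 effect 0.63 ± 0.17 (edgeR adjusted p = 0.402 and 0.124). Ide was at 59, 55.5 and 63.7 CPM in D138N 5xFAD against 86.4, 85.6 and 79.2 CPM, and at 87.4, 125 and 125 CPM in KO 5xFAD against 90.3, 60.4 and 67.4 CPM. The groups overlapped in the Zbp1 cohort only. The difference was -1.13 ± 0.24 (unadjusted p = 0.000126, adjusted p = 0.524). Without the transgenes Ide was at 118, 118 and 116 CPM in Zbp1-/- against 87.4, 61.1 and 52.1 CPM in WT, and the matching difference was -0.95 ± 0.24 (unadjusted p = 0.000754, adjusted p = 0.964). Of the 10 tested genes nearest to Ide in the RefSeq order, looked up after its values were seen, some had values of the same sign and others did not. Among them were Btaf1, a regulator of TATA-binding protein, with differences of -0.76 ± 0.23 with and -0.76 ± 0.23 without transgenes. Fgfbp3, a carrier of fibroblast growth factors, had -1.08 ± 0.30 and -0.51 ± 0.30. Rpl10-ps6, directly next to Ide in that order, had -2.72 ± 1.02 and -1.66 ± 1.06. Cpeb3, which lies between Btaf1 and Ide, had 0.07 ± 0.23 and -0.21 ± 0.23. Both effects on Cpeb3 were above 0, the Ripk1 effect at 0.45 ± 0.17 and the Zbp1 effect at 0.37 ± 0.17. The Zbp1 effects on Btaf1 and Fgfbp3 were 0.52 ± 0.16 and 0.39 ± 0.21, and that on Hhex was -0.72 ± 0.37. None of these effects was called. The differences in 5xFAD of Tnks2, Exoc6 and Kif11 were -0.05 ± 0.12, -0.04 ± 0.13 and 0.00 ± 0.60, and Hhex, a homeobox factor, had 0.45 ± 0.52 with and 0.98 ± 0.55 without transgenes.

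Other genes had effects of opposite sign as well. Trmt2b, a transfer RNA methyltransferase, had effects of 0.37 ± 0.12 and -0.29 ± 0.12 and a difference of 0.66 ± 0.17. Prag1, a regulator of tyrosine kinases, had effects of 0.34 ± 0.11 and -0.26 ± 0.11 and a difference of 0.60 ± 0.16. Ppp1r3g, a regulatory subunit of protein phosphatase that acts on glycogen, had effects of 0.59 ± 0.25 and -0.69 ± 0.25 and a difference of 1.27 ± 0.35. Col6a1, a collagen of meninges and vessels, had effects of -1.08 ± 0.26 and 0.34 ± 0.26 and a difference of -1.42 ± 0.37, with D138N 5xFAD at 45.2, 37.2 and 21 CPM against 98, 51.5 and 69.9 CPM. None of these passed adjustment in either effect.

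The contrast was repeated between mice without transgenes, as Ripk1 D138N/D138N minus WT less Zbp1-/- minus WT. No gene was called (0% called; smallest adjusted p = 0.655; 897 genes, or 3.98%, at an unadjusted p under 0.05, 1.98% higher and 1.99% lower). The interferon list had a median of -0.02 there, with 2 genes higher and 0 lower. The disease-associated microglia, homeostatic microglia and lysosome lists had medians of 0.47, 0.26 and 0.23, with 7, 1 and 5 genes higher and 0 lower. Their medians for D138N/D138N minus WT alone were 0.02, -0.02 and 0.02, with 0 genes past an unadjusted p of 0.05. For Zbp1-/- minus WT alone they were -0.41, -0.31 and -0.21. There 12, 5 and 9 genes were lower at that threshold and 0 higher, against 842 lower of all 22565 genes. Neither comparison called a gene. The test of whether the differences with and without transgenes differ called no gene (0% called; smallest adjusted p = 1; 804 genes, or 3.56%, at an unadjusted p under 0.05, 2.19% higher and 1.37% lower). In that test the interferon list had a median of -0.79, with 10 of 49 genes lower and 0 higher at an unadjusted p under 0.05. The disease-associated microglia, homeostatic microglia and lysosome lists had medians of 0.1, 0.36 and 0.08 in that test. They had 4, 1 and 2 genes higher and 0 lower at that threshold. For Gpnmb the difference without transgenes was 0.53 ± 0.32 and for Isg15 -0.40 ± 0.40, each from groups with little of either transcript.

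Thy1, whose promoter drives the transgenes, was higher in all 5xFAD groups than in WT mice, which had 535 to 672 CPM. It was at 1710, 2240 and 1590 CPM in D138N 5xFAD against 2710, 2260 and 2370 CPM, and at 1600, 1500 and 1480 CPM in KO 5xFAD against 2180, 2080 and 1470 CPM. Its effects were -0.40 ± 0.13 and -0.32 ± 0.13, neither called, and its difference -0.08 ± 0.18 (unadjusted p = 0.665). The library 5xFAD 3 of the Zbp1 cohort, lowest of its group for Thy1, was also lowest for Gpnmb, Trem2, Cd68 and Csf1r. With Thy1 level as a covariate the differences of Isg15 and Gpnmb were -1.75 and 1.53, against -1.79 and 1.47 without it. Some effects of 1 mutation on single genes moved more. With the covariate the Zbp1 effect was -0.79 against -1.23 for Trem2, -0.70 against -1.10 for Cd68 and -1.08 against -1.38 for Gpnmb. None of these 3 passed adjustment by edgeR. Ripk1 effects moved too, to -1.78 against -2.28 for Ifit3 and to -0.95 against -1.28 for H2-T23. That of Ifih1 moved the other way, to -1.30 against -1.10.

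**Figure D5:**
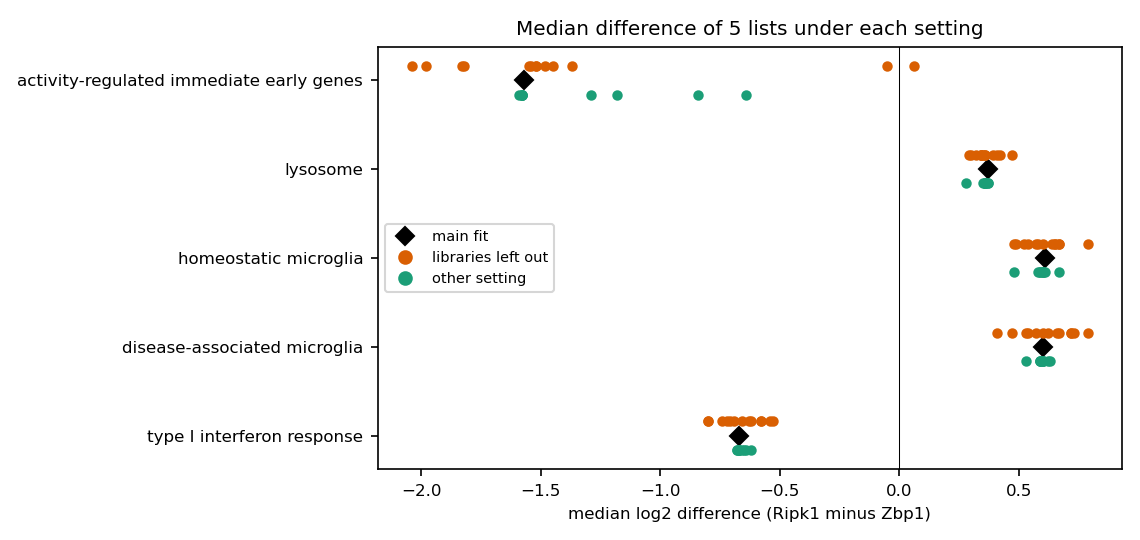
Median log2 difference, Ripk1 effect minus Zbp1 effect (horizontal axis), of 5 gene lists in the reported fit (diamond), with libraries left out (orange) and under other settings (green). The interferon median stayed between -0.53 and -0.80 and the disease-associated microglia median between 0.41 and 0.79, while the immediate early gene median came to -0.05 without 1 library.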

How the data were processed

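Polyadenylated hippocampal RNA was sequenced. The authors deposited 1 table of counts per cohort, whole numbers of reads per Ensembl gene, made with HISAT2 among other tools per the submitters' processing notes; the role of the builds named there (mm10/GRCm38, mm39/GRCm39) and the counting options, strand included, are not given in the sources at hand here. Groups came from the sample titles. Here the tables were joined on gene ID and the 24 libraries fitted with edgeR 4.0.16 in R 4.3.3 (TMM, filterByExpr, quasi-likelihood F test, 1 mean for each of 8 groups, 16 residual degrees of freedom, Benjamini-Hochberg adjustment over 22565 genes, threshold 0.05). CPM use TMM-adjusted library sizes. The SE is the absolute log2 fold change over the square root of F. Replicate libraries differed by more than sampling noise. DESeq2 1.42.0 and limma 3.58.1 gave alternatives.

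The members and lists were chosen with earlier results of these data known. Named were the targets, the 15 genes of smallest p in each direction of the difference (mean of at least 1 CPM), up to 4 per list, 6 per single effect, and up to 6 each with shared or opposite sign. Btaf1, Cpeb3, Ctsd, Cyp4f41-ps, Exoc6, Fos, Gusb, Hhex, Kif11, Oas1a, Rpl10-ps6 and Tnks2 lie outside this rule and were chosen after their values were seen. Sequences are RefSeq's for GRCm38.p6. RNA immunoprecipitation libraries were not used here. Some genes that the rule would name are not reported here.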

Additional observations from a re-analysis of the deposited data

How the results depend on the processing

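The difference of mutant effects called 0 genes in the reported fit, 10 with DESeq2, 68 without a filter on low counts, 8 without 5xFAD 3 of the Zbp1 cohort, and 0 under every other setting, so leaving out single libraries gave 0 to 8. The Ripk1 effect (50 calls) gave 165 with DESeq2, 319 without the filter, 1064 with limma voom and quality weights, 24 with Thy1 as a covariate, 78 with each cohort on its own, and 21 to 124 with a library left out. The Zbp1 effect (99 calls) gave 389, 709, 153, 0 and 0 under those settings in that order, 4 with the 12 libraries of the contrast, 60 with limma-trend, 15 without the 2 libraries that stand apart (chosen after seeing the data, as was the fit by cohort), and 0 to 838 with a library left out. Without the filter the difference without transgenes called 75 genes and the test between the differences 41. The cause of these shifts was not tested.

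Same-numbered libraries did not deviate together throughout (correlations of 0, -0.11 and -0.26 in the Ripk1 cohort and 0.32, 0.02 and 0.11 in the Zbp1 cohort), so the numbers were not taken as pairs. With a replicate block the difference called 0 genes, the Ripk1 effect 66 and the Zbp1 effect 209.

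The median difference of the immediate early genes was -0.64 with voom weights, 0.06 without the 2 libraries, and -2.04 to -0.05 with a library left out, the last without 5xFAD 1 of the Ripk1 cohort. Reversals touched values near 0 or that library. With a library left out the difference ran from -0.01 (without 5xFAD 3 of the Zbp1 cohort) to 0.61 for Zbp1, from -0.24 to 0.08 for Thy1, from -0.10 to 0.26 for Cpeb3, from -0.13 to 0.05 for Tnks2, from -0.09 to 0.02 for Exoc6, from -0.37 to 0.52 for Kif11 and from -5.29 to 0.27 (without 5xFAD 1 of the Ripk1 cohort) for Fosb. Without the 2 libraries it was 0.36 for Fosb and 0.09 for Tnks2. It was 0.05 for Tnks2 with voom weights, -0.03 for Cpeb3 with the Thy1 covariate, -0.01 for Kif11 with DESeq2, with RLE normalisation, without the filter and at a mean of at least 1 CPM, and 0 for Kif11 with the 12 libraries of the contrast. The medians of the interferon, microglial and lysosome lists kept their direction under every setting run. With 3 libraries a group the median SE was 0.23 among genes of at least 1 CPM, and a difference as large as that of Isg15, -1.79 ± 0.37, did not pass adjustment.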
